A study of Mus musculus with 9 samples.

Results

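Apelin and its receptor are a peptide signal and the cell-surface protein that binds it, encoded in the mouse by Apln and Aplnr. They are 2 of the 29237 genes in the deposited table and were taken by gene name. They were chosen by their measured levels, since an earlier look at these libraries had found both higher in TPTN than in DOX, so that contrast is described here and not tested. RNA sequencing was done on hearts of wild-type C57BL/6 mice of 8 to 12 weeks, with 3 libraries in each of the groups labelled control, DOX and TPTN. Per the design text, control mice were normal, DOX mice were a model made with doxorubicin, and TPTN was the treatment studied. Doxorubicin, an anthracycline drug against tumours, is toxic to the heart and can leave it dilated and weak. Not given in the labels are what TPTN is, whether TPTN mice also received doxorubicin, and which dose, route or day was used. Nothing beyond the replicate numbers says that libraries came from separate animals, so p-values measure the spread between these libraries, which may be partly technical.

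Apelin is secreted as a precursor that proteases trim to short peptides sharing the same carboxyl end. Its receptor is a G protein-coupled receptor that acts through inhibitory G proteins and beta-arrestins, and it resembles the angiotensin II type 1 receptor in sequence without binding angiotensin II. In the heart the receptor is found on endothelial cells and cardiomyocytes, apelin is made chiefly by endothelial cells, and the pathway is known for vessel growth, vasodilation and support of contraction. Apela, which encodes the second ligand of the receptor, was not analysed here.

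The gene Aplnr (ENSMUSG00000044338) lies on chromosome 2 from 85136225 to 85139923 on the plus strand of GRCm38, per the GENCODE M21 annotation. Its transcript listed in the table has 1 exon of 3699 bases, of which 1134 code for the receptor. Apln (ENSMUSG00000037010) lies on chromosome X from 48025146 to 48034853 on the minus strand, and its listed transcript has 3 exons and 3149 bases, of which only 234 are coding. The table lists 1 transcript for each gene, while the annotation holds 2 for Aplnr, the other a spliced one of 2 exons, and 1 for Apln. How reads were shared between the Aplnr transcripts is not given in the sources used here. Neither gene overlaps another annotated gene.

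The part of Apln that becomes the hormone is shown because it is the end that binds the receptor. The last 13 codons of the coding sequence, at chrX:48028299-48028340 in exon 2, encode apelin-13, and the capitals mark the stop codon.
Apln coding end: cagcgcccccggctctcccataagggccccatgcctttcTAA

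The stretch upstream of Apln is shown because the Apln transcript differed between groups. It covers the 250 bases before the start of transcription, chrX:48034854-48035103 on the minus strand of GRCm38.p6, from RefSeq, and the capitals mark the only match to GGGCGG.
Apln upstream window: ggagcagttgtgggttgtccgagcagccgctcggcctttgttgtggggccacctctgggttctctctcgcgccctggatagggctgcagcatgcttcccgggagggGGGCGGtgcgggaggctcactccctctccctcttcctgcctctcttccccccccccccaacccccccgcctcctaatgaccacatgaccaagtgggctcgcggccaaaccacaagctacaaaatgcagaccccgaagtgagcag

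This window was 65.2% G and C, against a median of 52.4% over 32851 upstream windows of the same length. GGGCGG, the core bound by Sp1, begins 144 bases upstream of the start and occurs on either strand in 32.7% of all windows. GGAAG, a core of ETS factor sites, occurs 3 times on the minus orientation of the window and in 64.1% of all windows. The window held no match on either strand to GCGTG (28.2% of windows) or ACGTG (16.6%), the cores of hypoxia response elements. It also held none to CACCC (52% of windows), CACGTG (6.02%) or TATAAA (12.4%). Every match of CACGTG is also one of ACGTG. These are letter matches in 1 window and say nothing of binding.

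Values are FPKM, a count of fragments scaled for both transcript length and sequencing depth, so levels can be compared between genes. Depth was estimated at 22.9 to 24.3 M (mega) read pairs a library in control, 18.4 to 19.2 in DOX and 19.3 to 21.2 in TPTN. The estimate is rough, and the low values do not bear it out. Between 11.4 and 14.7% of them came out whole, within 0.05, when divided by what 1 pair should be worth. Values with no whole-read pattern would come out whole at a share little below that. At that depth about 269 to 1132 read pairs lay behind a library's Aplnr value and 140 to 441 behind its Apln value. Mitochondrial genes and their 7 nuclear copies took 69.3 to 70.6% of the FPKM sum in control, 62.6 to 64.5% in DOX and 66.7 to 67.5% in TPTN. The groups did not overlap in this share or in estimated depth, so neither can be told apart from group. A scaling that leaves these genes out is given at the end. Cardiomyocyte markers such as Myh6 (2332 ± 91.5 FPKM in control, SD, n = 3) marked every library as heart muscle. DOX replicate 1 stood apart, with 4 atrial markers summing to 2444 FPKM against 51.4 to 289 in the other 8 libraries, so member values are also given without it.

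Receptor transcript was at one level in control and DOX hearts and at a higher one in TPTN hearts. The Aplnr level in control replicates 1, 2 and 3 was 5.61, 4.54 and 5.88 FPKM. DOX replicates held 3.83, 5.26 and 5.43 FPKM and TPTN replicates 10.5, 14.5 and 11.0 FPKM. All TPTN libraries lay above all others, while control and DOX libraries overlapped, with DOX replicate 1 lowest and TPTN replicate 2 highest. The group means were 5.34 ± 0.713 FPKM in control, 4.84 ± 0.88 in DOX and 12.0 ± 2.17 in TPTN (SD, n = 3 each). Among the 12500 genes with a mean of at least 0.5 FPKM, Aplnr stood above 55.0 to 69.4% of genes in the control and DOX libraries and above 82.1 to 86.2% in the TPTN libraries.

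Ligand transcript was likewise highest in TPTN hearts, at lower levels than the receptor. Control replicates 1, 2 and 3 held 2.94, 2.05 and 3.14 FPKM of Apln. DOX replicates held 2.34, 3.20 and 2.66 FPKM and TPTN replicates 4.76, 6.25 and 7.25 FPKM. The TPTN libraries again lay above the other 6, and control and DOX overlapped. The group means were 2.71 ± 0.581, 2.73 ± 0.436 and 6.09 ± 1.26 FPKM in control, DOX and TPTN (SD, n = 3 each). Control replicate 2 and DOX replicate 1 were the lowest of their groups for both genes, but the highest TPTN library was replicate 2 for Aplnr and replicate 3 for Apln. The SD within a group was 13.3 to 18.2% of the mean for Aplnr and 16.0 to 21.5% for Apln.

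**Figure D1:**
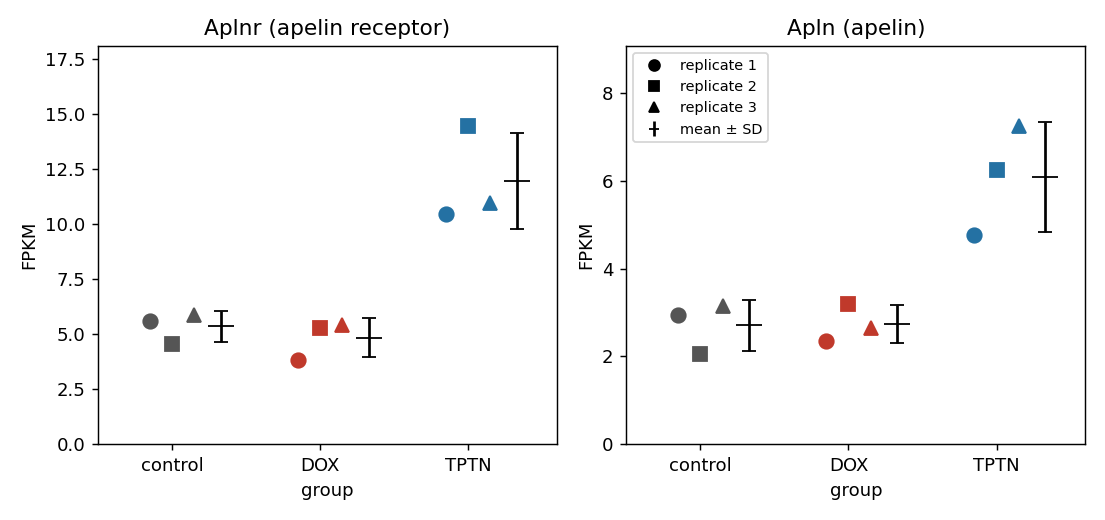
FPKM (vertical axes) of Aplnr and Apln in each library by group, with the marker shape giving the replicate and the black bar the mean ± SD of 3 libraries. The TPTN libraries reach 10.5 to 14.5 FPKM for Aplnr and 4.76 to 7.25 for Apln, above every control and DOX library.

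The comparison of DOX with control asks whether the doxorubicin model changed the pair. Neither gene passed the threshold, an adjusted p under 0.05 in limma with Benjamini-Hochberg adjustment over all 12500 genes, which 2.63% of genes passed (18% had an unadjusted p under 0.05). Both genes overlapped between the groups, while 22.8% of all genes did not. Changes are given as log2 of FPKM + 1, which understates those of low genes. The log2 change of Aplnr was -0.12 (SE 0.14, 95% confidence interval -0.45 to 0.20, adjusted p = 0.713) and that of Apln 0.016 (SE 0.15, interval -0.33 to 0.36, adjusted p = 0.975). Without DOX replicate 1 they were 0.0066 (adjusted p = 0.986) and 0.093 (adjusted p = 0.821). The median over all genes was 0.044.

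TPTN with control compares the treated group with the normal one, and it shares its 3 TPTN libraries with the contrast that led to the choice of these genes, so it is not independent of that choice. Aplnr was 2.24 times as high in TPTN as in control by the ratio of means, with a log2 change of 1.02 (SE 0.14, interval 0.70 to 1.35, limma adjusted p = 0.0161). Apln was 2.25 times as high, with a log2 change of 0.93 (SE 0.15, interval 0.59 to 1.28, limma adjusted p = 0.0285). Both genes were higher in 3 of 3 TPTN libraries, against 15.2% of all genes with TPTN libraries all above control and 0.336% of genes called higher (0.72% in either direction, and 13.1% at an unadjusted p under 0.05). Leaving out a library ended the call of Aplnr without control replicate 2 (adjusted p = 0.0541) and without TPTN replicate 3 (0.0594). It ended that of Apln without control replicate 2 (0.0713), control replicate 3 (0.0625), DOX replicate 3 (0.0578), TPTN replicate 2 (0.113) or TPTN replicate 3 (0.0912). With no filter on low values both lost it (adjusted p = 0.154 for Aplnr and 0.208 for Apln), as did Apln when only these 2 groups were fitted (0.0659), and with no filter limma called only 2, 6 and 2 genes in DOX against control, TPTN against control and TPTN against DOX.

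Between TPTN and DOX, the contrast that led to the choice, the means differed 2.47-fold for Aplnr and 2.23-fold for Apln. The log2 changes were 1.15 (SE 0.14) and 0.92 (SE 0.15), given without a test. They were 1.02 and 0.84 without DOX replicate 1. In this contrast 0.792% of all genes were called higher and 3.26% in either direction, 20.6% had an unadjusted p under 0.05, and 10.4% had all TPTN libraries above all DOX libraries. DOX libraries serve in this contrast and in the one with control, so these changes are not separate measurements.

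The proportion of receptor to ligand overlapped between the groups. Both genes were chosen as higher in TPTN than in DOX, which favours a similar ratio in those groups. The ratio of Aplnr to Apln FPKM, which scaling a library by a single factor cannot move, was 1.91, 2.22 and 1.88 in the control replicates. It was 1.64, 1.64 and 2.04 in those of DOX and 2.20, 2.31 and 1.51 in those of TPTN. The groups overlapped, and the widest spread was within TPTN, where replicate 3 held the lowest ratio of all 9 libraries. Group means were 2.00 ± 0.188, 1.77 ± 0.235 and 2.01 ± 0.434 (SD, n = 3 each).

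In a whole heart, more endothelial cells and more transcript per cell cannot be told apart, so the genes were also set against endothelial markers. The 12 markers summed to 225 to 254 FPKM in control, 217 to 232 in DOX and 202 to 230 in TPTN. The marker Ly6c1 averaged 61.7, 46.3 and 37.7 FPKM in these groups, so its lower level in TPTN lowers the sum and raises the shares below. Aplnr equalled 2.01 to 2.52% of that sum in control, 1.76 to 2.45% in DOX and 5.03 to 6.29% in TPTN. The share of Apln was 0.908 to 1.34%, 1.08 to 1.38% and 2.35 to 3.33% in the same order. The TPTN libraries stood above the others for both genes on this scale. These shares reuse the member values that led to the choice of the genes, so they are a description and no separate support.

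**Figure D2:**
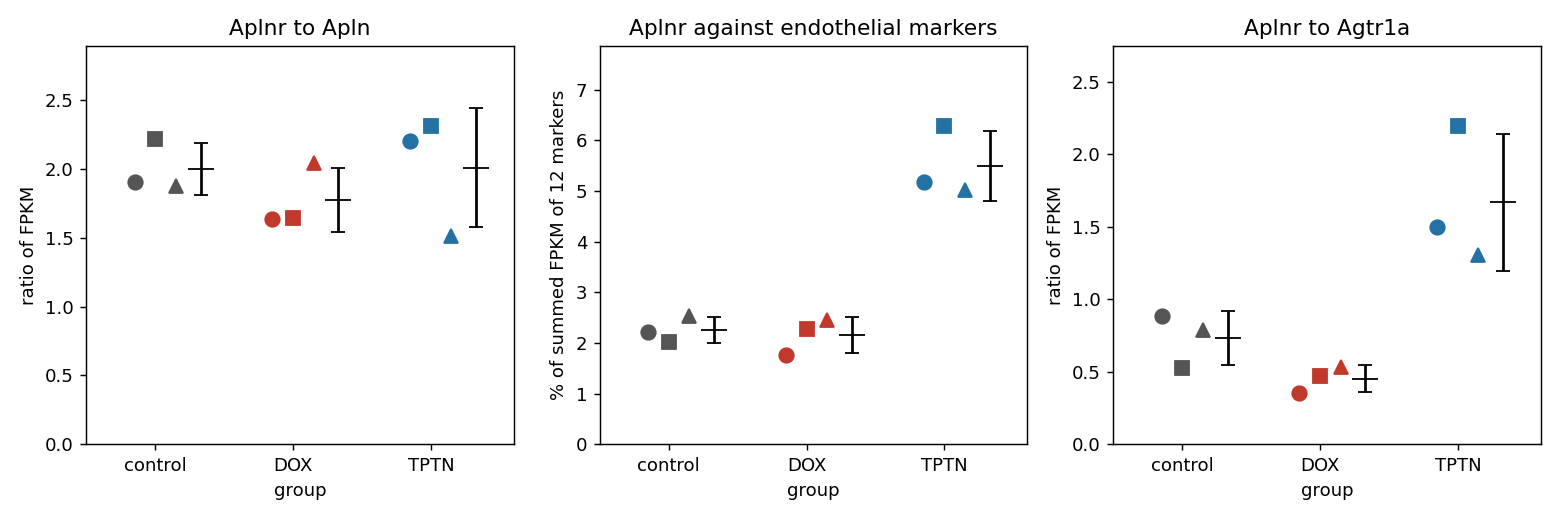
Ratios within each library (vertical axes start at 0): Aplnr to Apln, Aplnr as a percent of the summed FPKM of 12 endothelial markers, and Aplnr to Agtr1a, with the mean ± SD of 3 libraries in black and shapes giving the replicate (circle 1, square 2, triangle 3). The receptor to ligand ratio overlaps between groups, while the TPTN libraries are highest in the other panels. All panels reuse the Aplnr values that led to its choice.

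None of the 12 endothelial markers passed the limma threshold in any of the 3 comparisons, and 2, 1 and 1 had an unadjusted p under 0.05 in DOX against control, TPTN against control and TPTN against DOX. Over all genes 18, 13.1 and 20.6% had such a p in the same order. Pecam1, an adhesion molecule of endothelial junctions, was at 22.0 ± 1.01 FPKM in control, 22.7 ± 1.17 in DOX and 22.5 ± 3.28 in TPTN (SD, n = 3 each). Cdh5, the cadherin of the same junctions, was at 34.8 ± 1.76, 34.2 ± 2.85 and 36.2 ± 4.22 FPKM. Ly6c1, an antigen of capillary endothelium, was at 61.7 ± 5.43 FPKM in control and 37.7 ± 4.65 in TPTN (log2 change -0.70, limma adjusted p = 0.0555). Of the venous, arterial, endocardial and lymphatic marker lists, 4, 6, 3 and 4 genes were tested and 0 were called by limma, with 0, 1, 0 and 0 at an unadjusted p under 0.05 in TPTN against control.

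Genes of sprouting vessels, among which Apln itself is usually counted, were listed apart from it. Of 20 such genes, 17 passed the expression minimum. In TPTN against DOX 4 of the 17 rose and 0 fell, against 0.792% of all genes called higher, with a median log2 change of 0.20 against -0.0079 over all genes. The 4 were Kdr, the main receptor for VEGF-A, the basement membrane collagens Col4a1 and Col4a2, and Trp53i11. Kdr rose from 16.4 ± 1.07 to 23.4 ± 2.49 FPKM (log2 change 0.48, SE 0.10, limma adjusted p = 0.0303). Col4a1 rose by 0.66 and Col4a2 by 0.62 (adjusted p = 0.0392 and 0.0329), and Trp53i11 by 0.37 (adjusted p = 0.0364). In this contrast 8 of the 17 had an unadjusted p under 0.05, against 20.6% of all genes. Against control, Kdr alone of the 17 was called higher, from 14.4 ± 1.64 FPKM (log2 change 0.66, SE 0.10, limma adjusted p = 0.0161), against 0.336% of all genes. The median was 0.28 against 0.037 over all genes. Short of a call, 12 of the 17 had an unadjusted p under 0.05 against control, compared with 13.1% of all genes. In 10 of the 17 all TPTN libraries lay above all control libraries, compared with 15.2% of all genes. Unc5b, a guidance receptor of tip cells, had a log2 change of 0.53 in TPTN against control (adjusted p = 0.0971) and Lama4, a laminin chain of vessel basement membrane, 0.41 (adjusted p = 0.083). Between DOX and control 0 of the 17 were called by limma, 2 had an unadjusted p under 0.05 (18% of all genes did) and the median was 0.068. Igfbp3, a growth factor carrier named here after its values were seen, had a log2 change of -1.06 in TPTN against DOX (limma adjusted p = 0.176) and stood at 16.3 FPKM in DOX replicate 1. The first 2 genes of the list, Esm1 and Dll4, are a secreted tip cell proteoglycan and a Notch ligand. Esm1 lay at 0.17 to 0.46 FPKM, below the expression minimum. Dll4 was at 3.78 ± 0.433 FPKM in control and 4.60 ± 0.702 in TPTN (log2 change 0.22, adjusted p = 0.376).

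These counts rested on few libraries. In TPTN against DOX the 4 calls became 1 without control replicate 3, DOX replicate 1 or DOX replicate 2, and 0 without DOX replicate 3 or any TPTN library or with no filter. The call of Kdr against control was lost without control replicate 2, TPTN replicate 2 or TPTN replicate 3. The summed level of the 20 genes was 123 to 158 FPKM in control, 135 to 153 in DOX and 166 to 201 in TPTN. Much of that sum came from Col4a1, Col4a2 and Kdr, with means of 37.4, 30.8 and 14.4 FPKM in control and 51.1, 41.5 and 23.4 in TPTN. Of the 17 tested genes, 15 had a positive change in TPTN against control. The part of this sum in the levels of Apln and Aplnr was not tested.

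**Figure D3:**
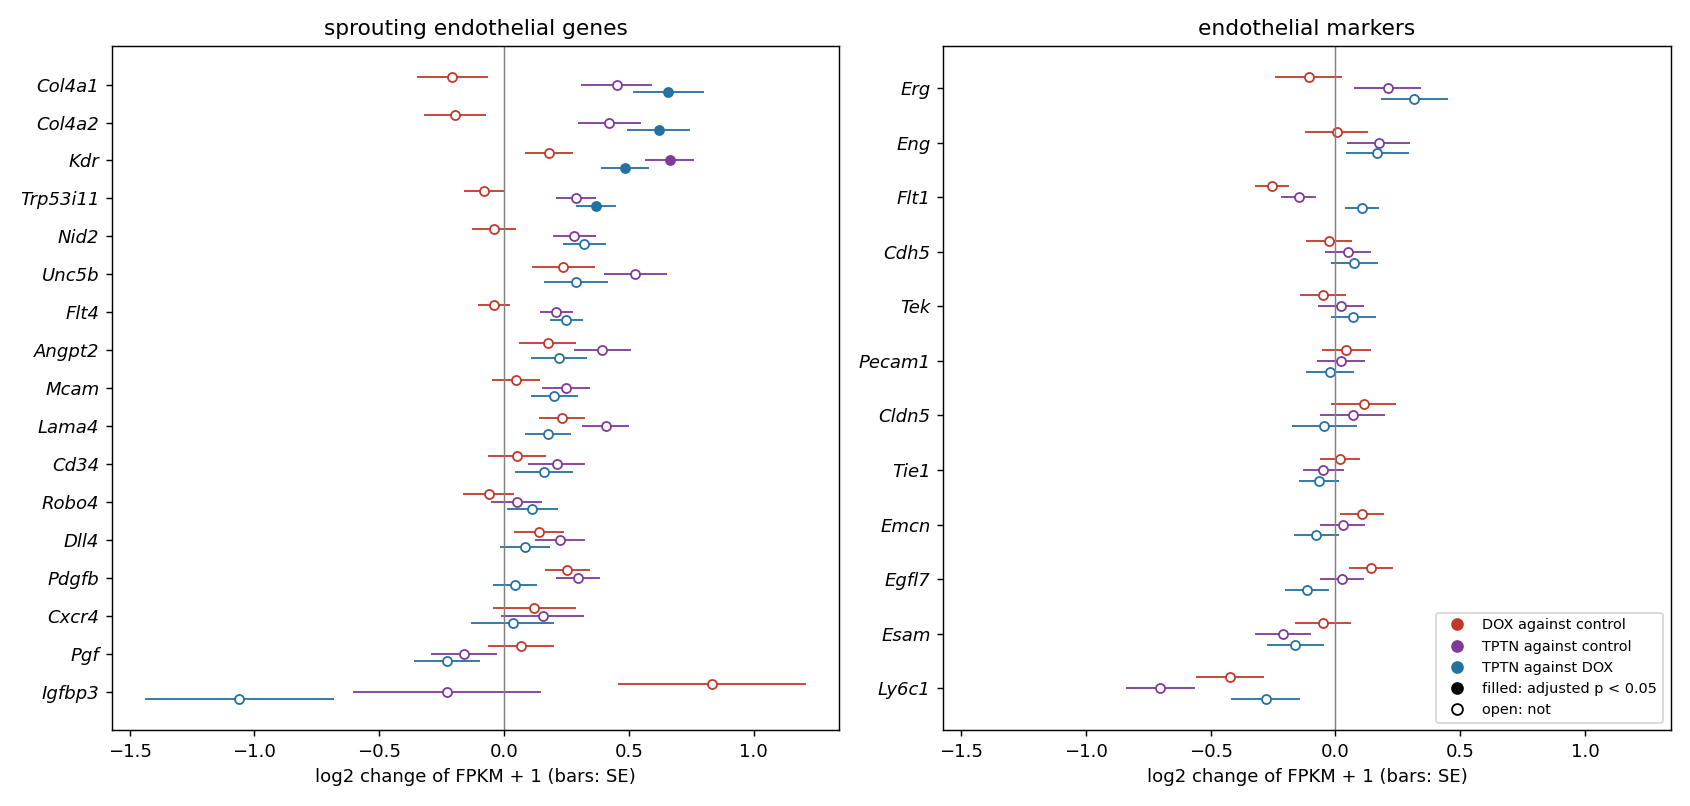
Log2 change of FPKM + 1 (horizontal axis, bars show the SE) for 17 sprouting endothelial genes and 12 endothelial markers in each of the 3 comparisons, filled where the limma adjusted p was under 0.05. Kdr, Col4a1, Col4a2 and Trp53i11 are filled on the left, and all markers on the right are open.

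Markers of other cells gave these sums. Smooth muscle and pericyte markers summed to 149 to 201 FPKM in control, 159 to 200 in DOX and 183 to 220 in TPTN, and fibroblast markers to 100 to 106, 101 to 150 and 100 to 115. Cardiomyocyte markers summed to 9013 to 9535, 10134 to 10517 and 9470 to 10032 FPKM, macrophage markers to 36.9 to 40.0, 32.2 to 44.1 and 37.7 to 42.0, and red cell markers to 228 to 555, 193 to 551 and 253 to 343. In each of these lists the range of the TPTN sums overlapped that of control. Single markers differed from their sums: C1qa, a complement subunit, made up most of the macrophage sum, while 4 of the 6 macrophage markers (Adgre1, Cd68, Csf1r and Mrc1) had all TPTN libraries above all control libraries, against 15.2% of all genes. In that comparison 0 of the 6 were called by limma, and 2 had an unadjusted p under 0.05, against 13.1% of all genes. The median log2 change of the 6 was 0.18. All 8 smooth muscle and pericyte markers had a positive change against control, with a median of 0.18, 0 called by limma and 0 at an unadjusted p under 0.05. Of the 6 fibroblast markers 0 were called in any comparison, and 2 had all TPTN libraries above all control libraries. Col1a1, a collagen gene named after its values were seen, was at 5.43 to 6.79 FPKM in control, 5.21 to 7.75 in DOX and 9.04 to 9.37 in TPTN. In DOX against control 2 of the 8 cardiomyocyte markers were called higher, Myl2 and Tnni3, against 2.23% of all genes. Ryr2 was called lower, against 0.4%, and 6 of the 8 had an unadjusted p under 0.05, against 18% of all genes. These calls passed in 6, 4 and 9 of 18 other settings. In TPTN against control and TPTN against DOX 0 of the 8 were called, with 1 and 6 at an unadjusted p under 0.05, against 13.1 and 20.6% of all genes. The part of these cells in the levels of Apln and Aplnr was not tested. The 5 adipocyte markers summed to at most 1.82 FPKM in any library, with Adipoq at 0.00 in all control libraries and at most 0.17 elsewhere.

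The enzymes that make and remove apelin changed in 0 of the 4 genes tested, in each comparison, by limma, and 0 had an unadjusted p under 0.05. Furin, the convertase that can cut the apelin precursor, was at 7.45 ± 0.45 FPKM in control, 7.29 ± 0.784 in DOX and 6.98 ± 0.192 in TPTN (SD, n = 3 each). The related convertase gene Pcsk7 was at 3.06 ± 0.19, 2.94 ± 0.325 and 3.19 ± 0.145 FPKM. Mme, which encodes the apelin-degrading peptidase neprilysin, was at 0.663 ± 0.0605, 0.521 ± 0.0414 and 0.616 ± 0.0249 FPKM, and its change between DOX and control was -0.13 (adjusted p = 0.373). Prcp, a carboxypeptidase gene, was at 1.48 ± 0.125, 1.66 ± 0.253 and 1.66 ± 0.142 FPKM. Klkb1, the gene of plasma kallikrein, which can also cut apelin, was not tested and was listed at 0.03 FPKM or less in every library.

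The angiotensin system, whose type 1 receptor is the apelin receptor's nearest well-known relative, moved in its receptor gene. Agtr1a stood at 6.35, 8.63 and 7.44 FPKM in the control replicates, at 10.9, 11.1 and 10.2 FPKM in those of DOX and at 6.98, 6.58 and 8.41 FPKM in those of TPTN. All DOX libraries lay above the other 6, and control and TPTN overlapped. It rose in DOX against control by 0.48 (SE 0.11, limma adjusted p = 0.0449) and fell in TPTN against DOX by 0.50 (SE 0.11, limma adjusted p = 0.0352). The rise passed in 3 of 18 other settings and the fall in 6 of 18, with the same sign in all 18. Neither passed under any of the 3 other scalings, with no filter on low values or with the replicate block. Without robust estimation, with only the 2 groups compared or without any library other than TPTN replicate 3 the rise did not pass, and the fall did not pass without control replicate 3 or any DOX or TPTN library.

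Agt, the gene of the angiotensin precursor, was at 2.29 ± 0.895, 2.49 ± 0.704 and 1.19 ± 0.237 FPKM in control, DOX and TPTN (SD, n = 3 each; limma adjusted p = 0.119 between TPTN and DOX). Ace, the gene of the converting enzyme, was at 8.77 ± 0.92, 7.37 ± 0.707 and 8.64 ± 0.309 FPKM. Of the 7 listed genes in the table, 3 were tested; in TPTN against DOX 1 fell, against 2.46% of all genes called lower, and in DOX against control 1 rose, against 2.23% called higher. Agtr1b, Agtr2 and Mas1, the remaining receptor genes, were at 0.27 FPKM or less in every library. The ratio of Aplnr to Agtr1a FPKM was 0.526 to 0.884 in control, 0.351 to 0.53 in DOX and 1.30 to 2.20 in TPTN. This ratio reuses the Aplnr values that led to its choice and is only a description.

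**Figure D4:**
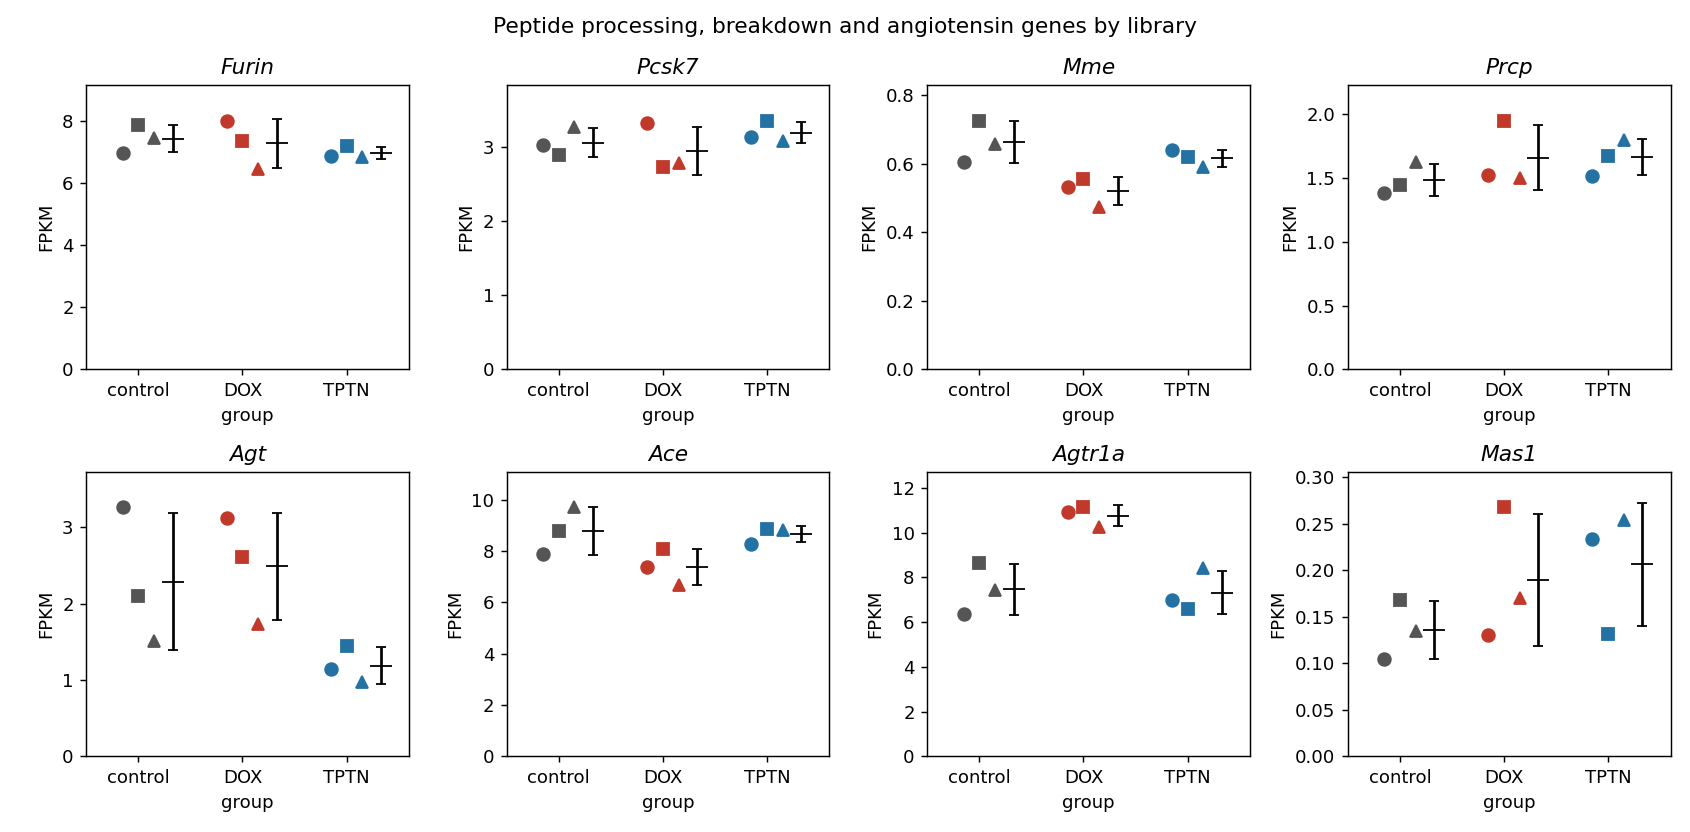
FPKM (vertical axes, starting at 0) by library of 8 genes for peptide processing, breakdown and the angiotensin system, with the mean ± SD of 3 libraries in black and shapes giving the replicate (circle 1, square 2, triangle 3). Agtr1a is highest in DOX (10.2 to 11.1 FPKM), and Furin overlaps between all groups.

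Downstream of the receptor, 26 of 27 listed signalling genes were tested. In TPTN against control 0 rose and 1 fell, against 0.384% of all genes called lower, with a median log2 change of 0.091 against 0.037 over all genes. The gene was Pik3r1, the regulatory subunit of phosphoinositide 3-kinase, which fell from 11.7 ± 1.63 to 7.04 ± 0.569 FPKM (log2 change -0.65, SE 0.12, limma adjusted p = 0.0351). That call passed in 9 of 18 other settings and was lost without control replicate 2, control replicate 3, DOX replicate 2 or any TPTN library. In TPTN against DOX and in DOX against control 0 of 26 were called by limma. At an unadjusted p under 0.05 there were 4 and 5, against 20.6 and 18% of all genes. The first genes listed are inhibitory G protein subunits: Gnai2 was at 33.8 ± 3.02, 37.5 ± 1.01 and 37.9 ± 2.37 FPKM in control, DOX and TPTN, and Gnai1 at 0.768 ± 0.118, 1.20 ± 0.432 and 0.881 ± 0.181. Akt1, a kinase of the same branch as Pik3r1, had a log2 change of 0.33 in TPTN against control (adjusted p = 0.189). Prkaa2, a catalytic subunit of AMP-activated kinase, had one of 0.23 in TPTN against DOX (adjusted p = 0.113).

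The table's own annotation assigns 131 further genes to an apelin signalling pathway, a wider set that was taken up after the table was seen and of which 100 were tested. In TPTN against DOX 3 rose and 4 fell, against 0.792 and 2.46% of all genes. In TPTN against control 2 rose and 0 fell, against 0.336 and 0.384%, and in DOX against control 5 rose and 1 fell, against 2.23 and 0.4%. The medians were 0.036, 0.071 and 0.059 on the log2 scale in the same order. The 2 that rose against control, named after their values were seen, were Ccnd1, the gene of cyclin D1 (log2 change 0.97, SE 0.16, limma adjusted p = 0.0304), and Adcy7, an adenylyl cyclase (0.38, SE 0.07, limma adjusted p = 0.042). Both also rose against DOX, together with the receptor gene Notch3 (0.37, limma adjusted p = 0.0351). Among the 4 that fell against DOX was Ccn2, the gene of connective tissue growth factor, at 20.9 FPKM in DOX and 11.1 in TPTN (log2 change -0.87, SE 0.11, limma adjusted p = 0.0085), which passed in 17 of 18 other settings. The other genes that fell, also named after their values were seen, passed in fewer: Gabarap in 11, Agtr1a in 6 and Rps6 in 3 of 18. The genes that rose passed in fewer settings than Ccn2 as well. Against control Ccnd1 passed in 11 of 18 other settings and was lost without control replicate 2, DOX replicate 3 or any TPTN library, and Adcy7 passed in 8 of 18 and held in only 2 of the 9 fits that leave out a library, those without control replicate 1 or DOX replicate 1. Against DOX both passed in 13 of 18, lost without DOX replicate 3 or any TPTN library, and Notch3 in 9 of 18, lost without control replicate 3, DOX replicate 2, DOX replicate 3 or any TPTN library.

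Of 17 genes known to act on Apln or Aplnr transcription or upstream of it, all were tested and 0 were called by limma in any comparison. In TPTN against DOX 3 had an unadjusted p under 0.05, against 20.6% of all genes. In each comparison with control 1 did, against 18% in DOX and 13.1% in TPTN. Hif1a, a hypoxia-inducible factor subunit, was at 7.87 ± 0.407, 7.44 ± 0.888 and 7.67 ± 0.72 FPKM in control, DOX and TPTN (SD, n = 3 each). Its relative Epas1 was at 14.5 ± 2.28, 11.2 ± 2.3 and 15.6 ± 1.76 FPKM, with a log2 change of 0.46 between TPTN and DOX (adjusted p = 0.124). The flow-responsive factor gene Klf2 was at 18.4 ± 5.74, 18.6 ± 1.77 and 12.3 ± 1.13 FPKM, and its change was -0.56 (adjusted p = 0.12).

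Other vasoactive peptide systems gave 1 call. Of 12 tested genes of the adrenomedullin, endothelin and related systems, Ramp1, an accessory protein of the calcitonin-like receptor, rose in DOX against control from 1.10 ± 0.0771 to 2.50 ± 0.648 FPKM (log2 change 0.72, SE 0.12, limma adjusted p = 0.0171), against 2.23% of all genes called higher. It lost its call without control replicate 2, control replicate 3 or DOX replicate 2, and with no filter. In TPTN against DOX and TPTN against control 0 of 12 were called by limma. At an unadjusted p under 0.05 there were 5 and 4, against 20.6 and 13.1% of all genes. All TPTN libraries lay above all control libraries in 2 of the 12 and below them in 3. Among the 3, named after their values were seen, were Ramp2 (6.48 to 10.8 FPKM in control, 4.78 to 4.81 in TPTN) and Ramp3 (3.11 to 3.65 and 1.78 to 3.04). The peptide gene Adm was at 3.03 ± 0.247, 3.90 ± 1.95 and 2.56 ± 0.0988 FPKM in control, DOX and TPTN, and Calcrl, its receptor, at 3.74 ± 0.62, 3.85 ± 0.52 and 3.86 ± 0.441.

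Genes with the most similar pattern were sought by the Pearson r of log2(FPKM + 1) over the 9 libraries among 4423 genes with a mean of at least 5 FPKM. This r is a description with no test, since the libraries fall into groups and share scaling. For Aplnr they were Ccnd1 (r = 0.969), Fam120a (0.954), Dysf, a membrane repair gene of muscle (0.954), Srp54a of the signal recognition particle (0.946) and Ets1, an ETS family transcription factor (0.936). For Apln they were Col15a1, a basement membrane collagen (0.985), Fam120a (0.976), Fscn1, an actin-bundling protein (0.964), Ccnd1 (0.963) and Ets1 (0.959). Ccnd1 was at 5.39 to 8.56 FPKM in control, 5.50 to 8.35 in DOX and 14.3 to 15.6 in TPTN. Col15a1 was at 5.06 to 7.38, 5.99 to 7.40 and 10.4 to 13.3 FPKM, and Fscn1 at 3.50 to 4.48, 3.93 to 5.50 and 6.79 to 7.74. These values follow from how the genes were picked. Both lists held Ccnd1, Fam120a and Ets1.

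Nearby genes were looked at last. The expressed genes nearest to Aplnr were Tnks1bp1, 63177 bases away, and Ssrp1, 89116 bases away. Those nearest to Apln were Ocrl, at 59278 bases, and Gm14648, at 124319 bases. The 2 on the higher-coordinate side of Aplnr were far off, Olfr1033 at 880710 bases and Gm13736 at 2386222 bases. Over the 8 neighbours taken (2 on each side of each gene) and the 3 comparisons, 0 of 24 values passed in limma and 5 had an unadjusted p under 0.05. Over all genes 13.1 to 20.6% had such a p, depending on the comparison. Tnks1bp1 had a log2 change of 0.20 in TPTN against DOX (adjusted p = 0.26) and Ocrl one of -0.030 (adjusted p = 0.868).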

How the data were processed

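The authors deposited 1 table of FPKM for 29237 genes in 9 libraries, which per the labels' protocols were poly(A)-selected and strand-marked. Per the submitters' processing notes, cutadapt 1.9, HISAT2 2.0.4, StringTie 1.3.4d, DESeq2, edgeR and GRCm38 were used, without steps named. The authors' deposited p-values and q-values name no groups and were not used. Depth was estimated from low values of 15203 genes with 1 listed transcript (tolerance 0.05). No count test was run because most low values did not come out as whole reads.

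The 12500 genes averaging at least 0.5 FPKM were tested on the log2(FPKM + 1) scale by limma 3.58.1 (R 4.3.3) with 1 mean per group, trend and robust estimation, and Benjamini-Hochberg adjustment. The procedure was tested on simulated data. Members, lists and rules were chosen with earlier results of these data known. Named genes are the members, the genes of the short apelin and angiotensin lists (1 is not reported here), up to 4 with the smallest p and the first 2 of other lists, and the 5 most similar to each member; others are said to be chosen after their values were seen. Positions come from GENCODE M21 and the upstream window from RefSeq, which matched 1 of 2 members. Other settings were 3 scalings, 2 filters, a pseudocount of 0.1, a replicate block, no robust estimation, a fit of only the compared groups and leaving out each library.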

Additional observations from a re-analysis of the deposited data

How the results depend on the processing

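Aplnr and Apln were higher in TPTN than in control and DOX in all 18 other settings, with log2 changes over the fits that leave out a library of 0.89 to 1.11 and 0.80 to 1.07 against control, and 1.02 to 1.23 and 0.80 to 1.06 against DOX. With no filter on low values the calls against control were lost (Aplnr 1.02, adjusted p = 0.154; Apln 0.93, adjusted p = 0.208). Apln also lost it when only the 2 groups compared were fitted (0.93, adjusted p = 0.0659). Between DOX and control, where neither gene was called, the sign of Apln turned under median ratios (-0.030), quantile normalization (-0.024) and scaling without mitochondrial genes and their copies (-0.10). Leaving out a library gave -0.12 to 0.10 for Apln and -0.22 to 0.0066 for Aplnr there.

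Counts of called genes moved more. For DOX against control 329 (279 higher, 50 lower) became 2 with no filter, 155 (95 higher, 60 lower) under median ratios, 144 (76 and 68) under quantile normalization, 175 with only the 2 groups compared, and 2 to 316 when a library was left out. For TPTN against control 90 (42 higher, 48 lower) became 6 with no filter and 21 to 146 without a library, and was 101 (37 and 64) under median ratios. For TPTN against DOX 407 (99 higher, 308 lower) became 2 with no filter and 45 to 484, and was 401 (143 and 258) under median ratios and 333 (171 and 162) under quantile normalization. When mitochondrial genes and copies were kept out of the scaling, it became 671 (542 and 129), DOX against control gave 61 higher and 209 lower, and the median of all genes moved from 0.044 to -0.071 in DOX against control and from -0.0079 to 0.085 in TPTN against DOX, where Aplnr and Apln lay 1.18 and 0.93 above it. With the replicate block the counts were 170 for DOX against control and 159 for TPTN against DOX, and Aplnr and Apln kept their calls against control (adjusted p = 0.0324 and 0.0475). The block also cut the 4 sprouting genes called in TPTN against DOX to 1 (Kdr) and ended the calls of Pik3r1, Ccnd1 and Adcy7 against control, of Notch3 against DOX and of Agtr1a in both comparisons with DOX. Deviations of same-numbered libraries correlated at -0.26 to 0.02, with 0 of 9 pairs over 0.1, and 0 of 9 libraries correlated best with its own number. Pairing by number was thus not seen in this check over all genes, which cannot exclude it. The cause of the moves in the counts was not tested. Fits without a library hold fewer samples. Of 1080 list counts under other settings, 139 moved by over 1.5 times or between 0 and a call. Many lists held 0 calls in the main fit and so had none to lose, and the adipocyte list held 0 tested genes there. The 139 thus understates how lists with calls moved. Agtr1a, the 1 call of the angiotensin list in DOX against control, passed in 3 of 18 settings. Depth, on the rough estimate about 140 read pairs for the lowest Apln value, may limit the smaller differences.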
